A study of Mus musculus with 24 samples.

Results

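The comparison described here sets the livers of 5 control mice fed a diet labelled HFCF (HF_C) against those of 4 control mice fed a diet labelled LFCF (LF_C), measured by bulk RNA sequencing of whole liver. These 9 libraries, 1 per mouse, are part of a series of 24 and were taken by their titles. All genes of their shared count table were tested, and the results are given by gene class. HF_C mice had eaten HFCF, entered as a high fat diet, for 34 weeks and carry the disease label non-alcoholic steatohepatitis. LF_C mice had eaten LFCF, entered as low fat, and are labelled healthy. Both groups were adult, untreated and of the genotype called control mouse, the label that the wider study sets against a hepatocyte-specific PPARgamma knockout. The labels used here name no strain, sex, age or allele for either group, and do not say how long LFCF was fed.

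Steatohepatitis is the stage of fatty liver disease in which stored fat is joined by injured hepatocytes, inflammation and scarring. Hepatocytes in such livers are known to lose part of their enzyme programme, bile duct cells can multiply at the portal tracts, and stellate cells and macrophages change state. Whole-liver RNA averages over all of these cells, so a higher or lower value in HF_C livers can come from a change in cell numbers or from a change within cells, and fewer cells of a type and less RNA per cell cannot be told apart.

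HF_C libraries held 26403934 to 28742638 counted reads and LF_C libraries 22559443 to 25519030. Of 14772 genes tested, 3168 were higher in HF_C livers (21.4%) and 2835 were lower (19.2%), 40.6% in all, by edgeR's quasi-likelihood test at a Benjamini-Hochberg adjusted p under 0.05. That test gives every adjusted p below, except those for ratios of 2 genes, and every log2 fold change, which is followed by ± its SE where an error is given. A mean CPM is followed by ± its SD over 5 HF_C or 4 LF_C livers. Levels are in CPM, read counts relative to library size, scaled by the trimmed mean of M-values, a factor that offsets differences in RNA composition. With library totals and no such factor, the median log2 fold change of all genes was 0.24 instead of -0.03. That scaling called 5309 genes higher and 886 lower, so that 85.7% of the calls were higher instead of 52.8%. Class medians taken relative to the median of all genes moved by at most 0.02 between the scalings. The direction of small changes depended on the scaling, so class counts with library totals are given below for many classes. Those counts are to be read beside the 5309 higher and 886 lower of all 14772 genes tested with that scaling. The library LF_C replicate 4 stood apart on the second principal component, at 45.7 against -22.9 to -16.7 in the other LF_C libraries, so counts of calls that rest on it are also given without it.

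Markers of several cell types moved with diet. The hepatocyte list, 12 genes such as albumin (Alb), summed to 59969 to 67830 CPM in HF_C livers, against 97572 to 131678 CPM in LF_C livers, and 8 of its 12 genes were lower. Cholangiocyte markers summed to 572 to 1283 CPM in HF_C livers, against 75.2 to 119 CPM in LF_C livers, with 9 of 10 genes higher, and most of that sum was Spp1, a secreted phosphoprotein also made by macrophages, at 490 to 1125 CPM in HF_C livers, against 31.3 to 75.2 CPM in LF_C livers. Stellate cell and myofibroblast markers summed to 995 to 1400 CPM in HF_C livers, against 329 to 426 CPM in LF_C livers, with 9 of 10 higher. The macrophage list was mixed, with 6 of 12 genes higher and 2 lower, and summed to 689 to 1354 CPM in HF_C livers, against 354 to 786 CPM in LF_C livers. For T and NK cells the sums were 11.5 to 22.6 CPM in HF_C livers, against 4.35 to 6.81 CPM in LF_C livers (8 of 10 higher), and for neutrophils 15.6 to 41.9 CPM in HF_C livers, against 8.12 to 9.37 CPM in LF_C livers, where HF_C replicate 2 was the high library. Endothelial sums overlapped, at 281 to 483 CPM in HF_C livers, against 334 to 491 CPM in LF_C livers, and 4 of 10 genes were lower with 1 higher. B and plasma cell sums also overlapped, at 389 to 409 CPM in HF_C livers, against 398 to 497 CPM in LF_C livers, with 1 of 9 genes higher and 1 lower, as did mesothelial sums, at 9.19 to 17.2 CPM in HF_C livers, against 6.42 to 10.5 CPM in LF_C livers, with 2 of 5 higher and 3 lower. Erythroid markers summed to 84.5 to 155 CPM in HF_C livers, against 166 to 238 CPM in LF_C livers, with 4 of 5 genes lower. The adipocyte list summed to 54.2 to 85.8 CPM in HF_C livers, against 33.3 to 52.5 CPM in LF_C livers, with 2 of 4 genes tested higher and 1 lower, although its defining members Adipoq and Plin1 had at most 0.0655 CPM in any library. Pancreatic acinar markers summed to 12.3 to 13 CPM in HF_C livers, against 7.96 to 26.5 CPM in LF_C livers, nearly all of it Cela1, with Cela3b, Prss2 and Try4 at 0 reads in LF_C livers, and skeletal muscle markers stayed at or under 0.393 CPM. The part these cell-type differences had in the class results below was not tested.

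**Figure D1:**
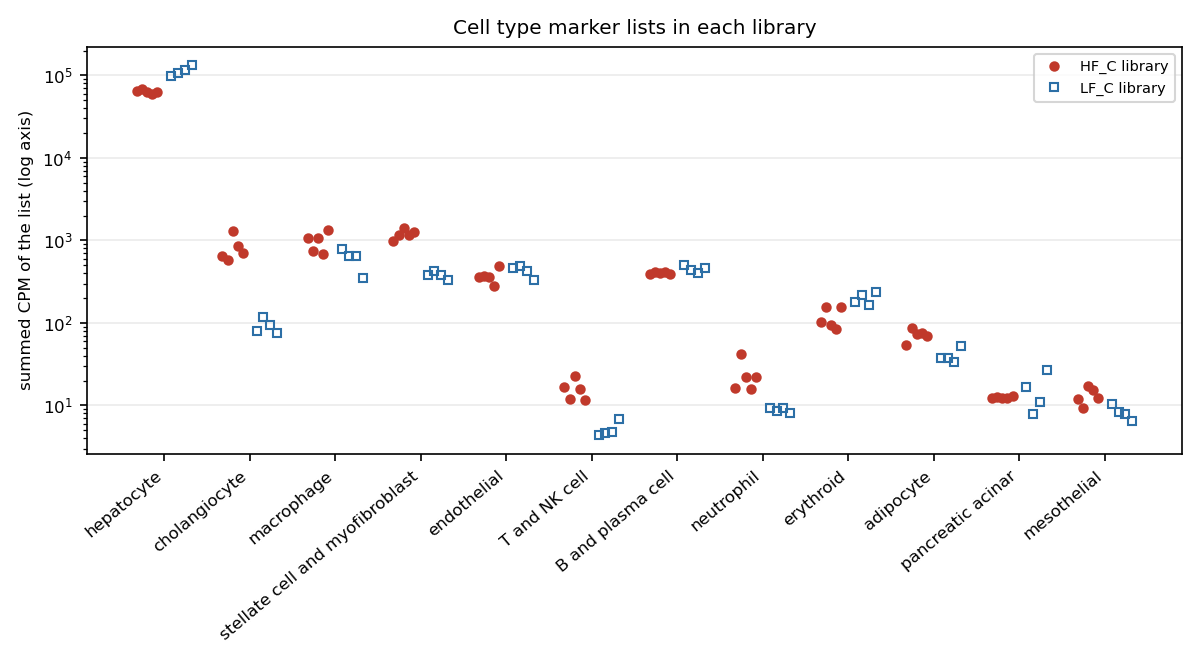
Summed CPM of 12 cell type marker lists (log axis) in each library, with HF_C livers as filled circles and LF_C livers as open squares to their right. Hepatocyte sums lie at 59969 to 67830 CPM in HF_C livers, below the 97572 to 131678 CPM of LF_C livers, and cholangiocyte sums at 572 to 1283 CPM in HF_C livers, above the 75.2 to 119 CPM of LF_C livers.

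The classes fell into blocks that differed in direction. Genes of the cytoskeleton, cell surface, growth signalling and fetal or progenitor cells were mostly higher in HF_C livers, and genes of hepatocyte metabolism, peroxisomes and mitochondria were mostly lower. When each class was reduced to its median member in each library, 16 of 35 classes had all HF_C libraries above all LF_C libraries, 9 had all HF_C libraries below, and 10 overlapped. Some of these gaps were very small. HF_C replicate 2 was at -0.19 against -0.17 in the lowest LF_C library for the respiratory chain. For mitochondrial ribosomal proteins it was -0.14 against -0.13, and for conjugation -0.13 against -0.12. For p53 targets, HF_C replicate 1 was at 0.10 and LF_C replicate 1 at 0.07. For single genes, 18.6% of all genes tested had every HF_C library above every LF_C library and 15.6% had every HF_C library below.

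**Figure D2:**
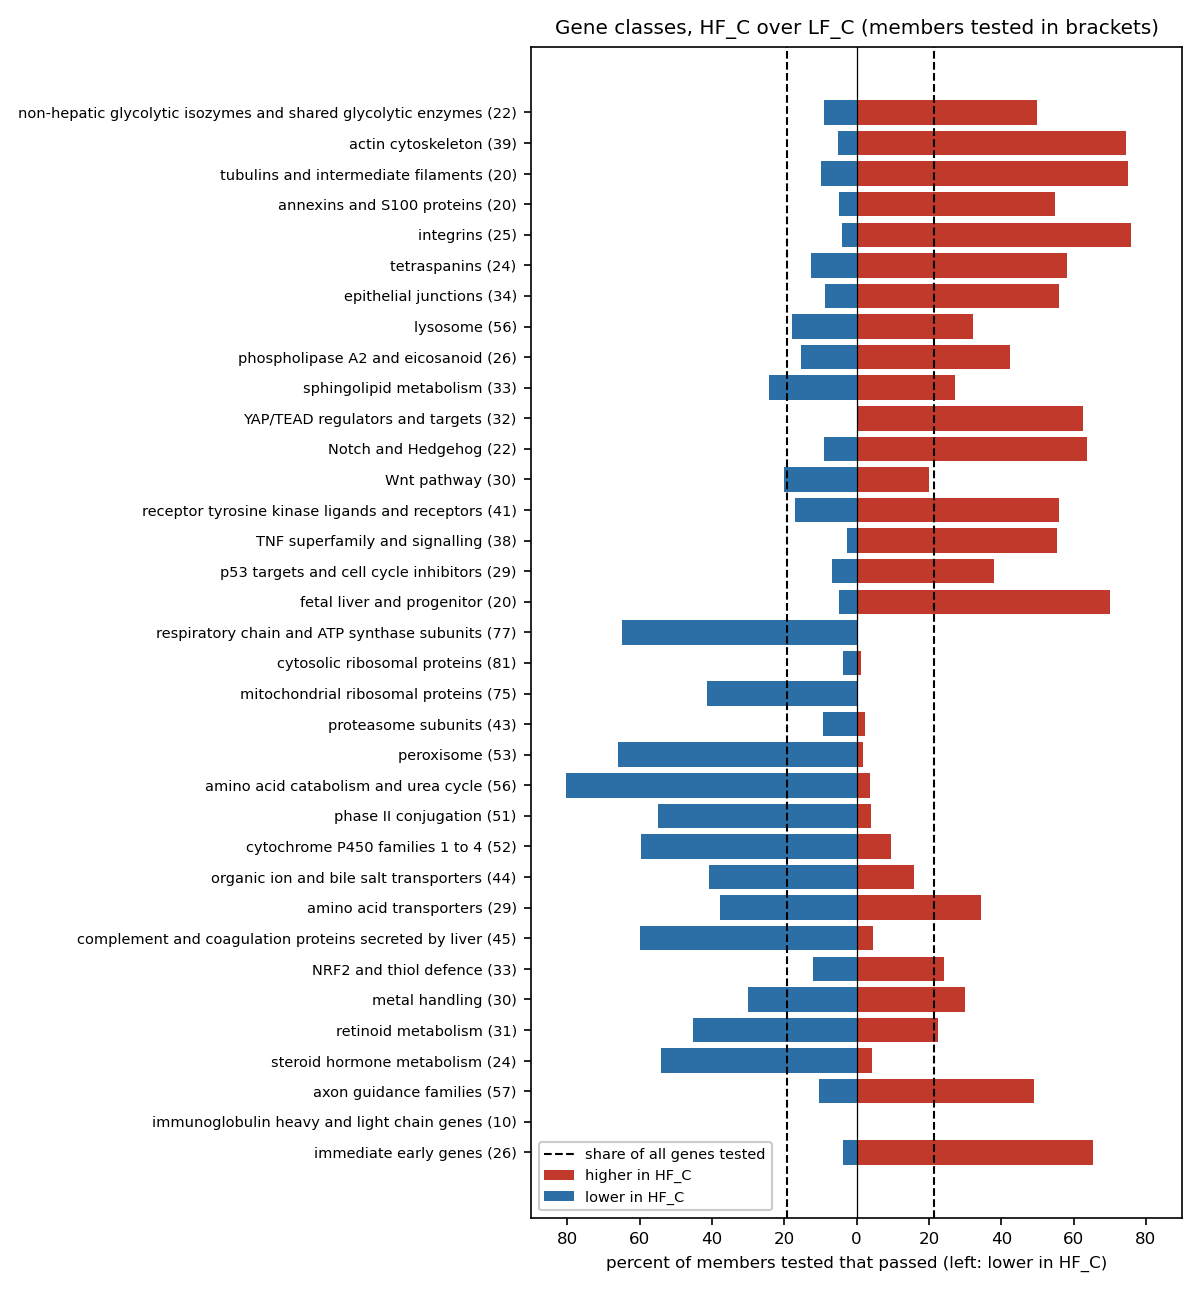
Share of tested members of each gene class that passed, with members higher in HF_C livers to the right and lower to the left (percent; members tested in brackets). Dashed lines mark the 21.4% of all genes tested that were higher and the 19.2% that were lower. Integrins reach 76% higher, and amino acid catabolism 80.4% lower.

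**Figure D3:**
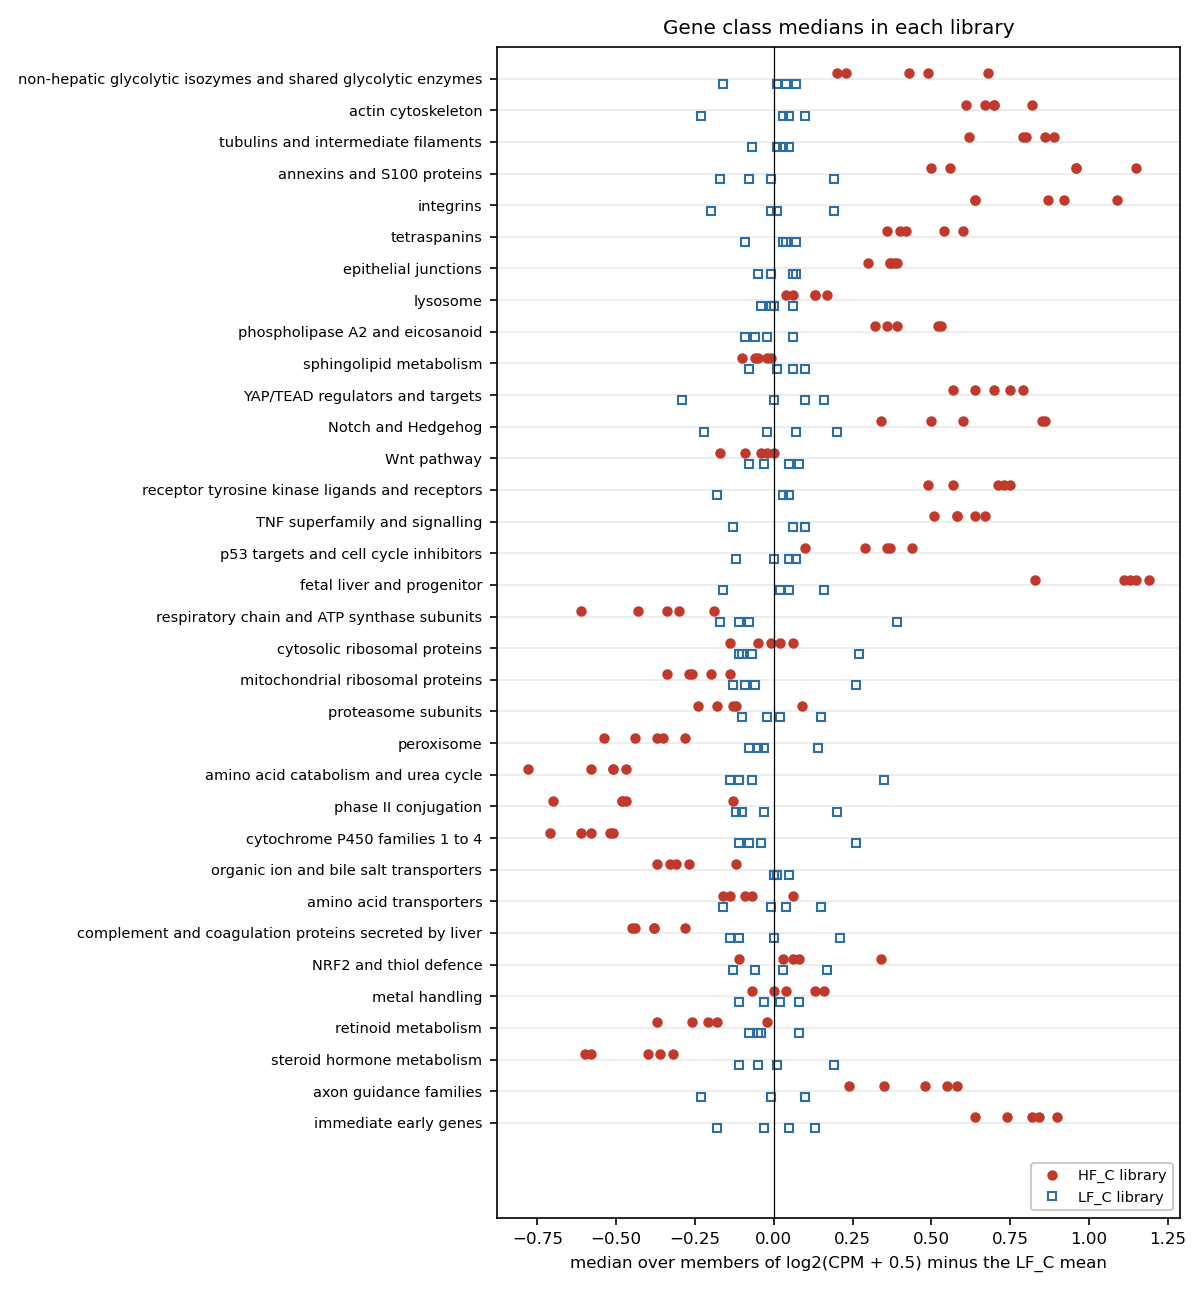
Median over the members of a class of log2(CPM + 0.5) minus the mean of the LF_C libraries (horizontal axis), for each library. HF_C libraries are filled circles, drawn above the open squares of LF_C libraries. The fetal and progenitor class lies at 0.83 to 1.19 in HF_C libraries and -0.16 to 0.16 in LF_C libraries, and ribosomal proteins overlap. Immunoglobulin genes are not drawn.

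Most structural genes of the cytoskeleton were higher in HF_C livers. Actin and its binding proteins drive cell shape, contraction and movement, while tubulins form microtubules and keratins and vimentin form intermediate filaments. Of the actin class, 29 of 39 genes tested were higher in HF_C livers and 2 lower, with a median log2 fold change of 0.71 against -0.03 for all genes. Among tubulins and intermediate filaments, 15 of 20 were higher and 2 lower (median 0.82). Tmsb10, which encodes the monomeric-actin binding peptide thymosin beta-10 (ENSMUSG00000079523, chr6:72957347-72958748 on GRCm38), had 38.4, 43.7, 55.9, 50.3 and 45 CPM in HF_C livers, against 10.1, 13.7, 12.6 and 10.6 CPM in LF_C livers. Every HF_C value was at least the 38.4 CPM of replicate 1, above the highest LF_C value of 13.7 CPM (log2 fold change 1.99 ± 0.13, adjusted p = 3.7e-06). Flna, the actin crosslinker filamin A, had 128, 118, 157, 124 and 153 CPM in HF_C livers, against 45.9, 51.5, 43.7 and 32.7 CPM in LF_C livers (log2 fold change 1.65 ± 0.14, adjusted p = 8.8e-06). The leukocyte actin-binding gene Lsp1 averaged 12.7 ± 1.87 CPM in HF_C livers, against 3.73 ± 0.481 CPM in LF_C livers (SD, n = 5 and 4), and the common cytoplasmic actin Actb, often used as an invariant reference gene, averaged 828 ± 29.9 CPM in HF_C livers, against 481 ± 38.1 CPM in LF_C livers. Both rose, Lsp1 by 1.77 ± 0.15 and Actb by 0.78 ± 0.08 on the log2 scale (adjusted p = 1.1e-05 and 3.6e-05). The lower actin genes were Pls3 and Rdx, at log2 fold changes of -0.41 and -0.30, and neither passed with library totals, nor Rdx without LF_C replicate 3 (adjusted p = 0.0501). The lower tubulins were Tuba4a and Tubg1, at -0.57 and -0.38 (adjusted p = 0.00732 and 0.0388). Neither passed with library totals (adjusted p = 0.0603 and 0.457), and Tubg1 did not without any of 6 of the libraries (adjusted p 0.0529 to 0.1).

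Tuba1a, an alpha-tubulin, had 15.6, 20.3, 22.2, 17.2 and 19.4 CPM in HF_C livers, against 4.25, 5.37, 4.05 and 2.99 CPM in LF_C livers (log2 fold change 2.18 ± 0.17, adjusted p = 5.1e-06). Krt8 and Krt18 encode the keratin pair of hepatocytes and bile duct cells, the filaments that collapse into Mallory-Denk bodies in injured hepatocytes. Krt8 had 484, 637, 520, 618 and 668 CPM in HF_C livers, against 240, 269, 220 and 189 CPM in LF_C livers. Krt18 had 272, 338, 331, 345 and 380 CPM in HF_C livers, against 162, 139, 141 and 138 CPM in LF_C livers. Both keratins lay higher in every HF_C liver than in any LF_C liver, with log2 fold changes of 1.35 ± 0.13 and 1.20 ± 0.10 (SE) and adjusted p = 1.8e-05 and 9.5e-06. Vim, the intermediate filament of mesenchymal cells, averaged 90.5 ± 15.1 CPM in HF_C livers, against 28.3 ± 8.12 CPM in LF_C livers (SD, n = 5 and 4; log2 fold change 1.68 ± 0.18, adjusted p = 4.1e-05). Tubb2a was the least even of these, at 153, 370, 142, 224 and 230 CPM in HF_C livers, against 87.9, 71.1, 107 and 27.6 CPM in LF_C livers. HF_C replicate 2 was its highest library and LF_C replicate 4 its lowest (log2 fold change 1.61 ± 0.36, adjusted p = 0.00399).

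Annexins and S100 proteins, small calcium sensors that dock at membranes, included some of the steepest rises. Of 20 tested, 11 were higher and 1 lower, with a median of 1.33. Anxa2 (ENSMUSG00000032231, chr9:69453620-69491795), a phospholipid-binding scaffold at the plasma membrane, had 155, 179, 162, 196 and 203 CPM in HF_C livers, against 20.4, 36.5, 21 and 12.2 CPM in LF_C livers. The lowest HF_C liver stood at 155 CPM and the highest LF_C liver at 36.5 CPM (log2 fold change 2.99 ± 0.25, adjusted p = 9.0e-06). S100a11 had 32.9, 50.3, 46.8, 52 and 48.7 CPM in HF_C livers, against 5.88, 10.4, 7.19 and 3.48 CPM in LF_C livers. HF_C replicate 1 was the lowest of its group, yet above every LF_C library (log2 fold change 2.77 ± 0.25, adjusted p = 1.2e-05). S100a6 had 4.79, 6.63, 7.1, 7.26 and 6.67 CPM in HF_C livers, against 1.24, 1.99, 1.38 and 1.16 CPM in LF_C livers (log2 fold change 2.16 ± 0.21, adjusted p = 2.1e-05). Anxa3 rose by 1.92 ± 0.17 on the log2 scale (SE; adjusted p = 1.1e-05). The single lower member, Anxa11, was at -0.28 (adjusted p = 0.03), a call lost with library totals, with no filter on low counts and without any of 6 of the libraries, with adjusted p = 0.0537 to 0.0817 in those 6 fits.

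At the cell surface, integrins, tetraspanins and epithelial junction genes were also mostly higher. Integrins are the receptors by which cells hold on to matrix, and 19 of 25 tested were higher with 1 lower (median 0.88). Itgax, which encodes CD11c of dendritic cells and some macrophages, had 27.8, 17.8, 35.6, 28.1 and 24.2 CPM in HF_C livers, against 2.25, 3.26, 1.64 and 1.84 CPM in LF_C livers (log2 fold change 3.57 ± 0.24, adjusted p = 3.8e-06). Itgb4, the hemidesmosome integrin of epithelia, had 4.25, 3.15, 6.42, 4.66 and 4.92 CPM in HF_C livers, against 1.1, 1.14, 1.03 and 1.06 CPM in LF_C livers (log2 fold change 2.11 ± 0.23, adjusted p = 4.4e-05). Itgb6, the epithelial integrin that activates latent TGF-beta, had 2.13, 1.15, 4.48, 2.64 and 2.17 CPM in HF_C livers, against 0.0956, 0.296, 0.0431 and 0.145 CPM in LF_C livers. Its levels were low but did not overlap (log2 fold change 4.06 ± 0.54, adjusted p = 1.4e-04; log2 fold change 4.69 without LF_C replicate 2). Itga3, a laminin receptor subunit, rose by 1.02 ± 0.12 (SE; adjusted p = 6.7e-05). The lower member was Itga7, at 7.04 to 10.1 CPM in HF_C livers, against 11.1 to 15.7 CPM in LF_C livers (log2 fold change -0.63 ± 0.14, adjusted p = 0.00408), a call that library totals did not keep (log2 fold change -0.35, adjusted p = 0.0801).

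Among tetraspanins, membrane organisers abundant on exosomes and late endosomes, 14 of 24 tested were higher and 3 lower (median 0.40). Tspan8 had 14.6, 16.5, 26.3, 24.9 and 18.4 CPM in HF_C livers, against 1.1, 2.2, 1.46 and 0.0483 CPM in LF_C livers. LF_C replicate 4 was far below the other LF_C livers, and no HF_C liver was under 14.6 CPM (log2 fold change 4.03 ± 0.45, adjusted p = 4.4e-05). Cd63, the classic late endosome and exosome tetraspanin, had 60.8, 48.4, 97.1, 73.7 and 57 CPM in HF_C livers, against 5.97, 19.3, 8.49 and 4.44 CPM in LF_C livers (log2 fold change 2.81 ± 0.37, adjusted p = 1.4e-04; log2 fold change 3.41 without LF_C replicate 2). Cd9, another exosome marker, averaged 44.7 ± 5.93 CPM in HF_C livers, against 21.6 ± 3.55 CPM in LF_C livers (SD, n = 5 and 4; log2 fold change 1.05 ± 0.13, adjusted p = 8.3e-05). Epithelial junction genes passed as higher in 19 of 34 cases and as lower in 3 (median 0.33). Cldn7, a claudin of bile duct and other simple epithelia, had 4.03, 3.56, 8.77, 6.79 and 5.06 CPM in HF_C livers, against 0.526, 1.02, 0.689 and 0.869 CPM in LF_C livers (log2 fold change 2.85 ± 0.33, adjusted p = 5.4e-05). Cdh6, kidney and progenitor cadherin-6, held 255 reads over the HF_C libraries, against 9 reads over the LF_C libraries. The gap junction genes of hepatocytes went the other way. Gjb2, connexin 26, had 257, 281, 258, 240 and 252 CPM in HF_C livers, against 504, 354, 388 and 426 CPM in LF_C livers (log2 fold change -0.70 ± 0.10, adjusted p = 2.9e-04), and Gjb1, connexin 32, was at -0.38 (adjusted p = 0.0273), a call lost with library totals and without any of 4 of the HF_C libraries (adjusted p 0.0501 to 0.0698). Of the marker sums above, the cholangiocyte, stellate, T and NK cell, neutrophil and adipocyte ones were higher in every HF_C liver. Hepatocyte and erythroid sums were lower in every HF_C liver, and the macrophage, endothelial and remaining sums overlapped. Which cells held the genes of these classes was not tested.

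The Hippo pathway restrains the coactivators YAP and TAZ, which act with TEAD transcription factors to drive growth and matrix genes. Among its components and known targets, 20 of 32 genes tested were higher and 0 lower by edgeR, with 21 and 0 at an unadjusted p under 0.05 and 20 and 0 by DESeq2 (median 0.71). Ankrd1, Ajuba and Cyr61 are shown because their promoters hold the TEAD core GGAATG, and Ankrd1 was picked after its values were seen. Each line gives 250 bases before to 50 bases after the start site from RefSeq on GRCm38.p6, with matches on either strand in capitals. Ankrd1 is at chr19:36119795-36120094, minus strand, Ajuba at chr14:54577612-54577911, minus strand, and Cyr61, listed by RefSeq as Ccn1, at chr3:145649936-145650235, minus strand.
Ankrd1: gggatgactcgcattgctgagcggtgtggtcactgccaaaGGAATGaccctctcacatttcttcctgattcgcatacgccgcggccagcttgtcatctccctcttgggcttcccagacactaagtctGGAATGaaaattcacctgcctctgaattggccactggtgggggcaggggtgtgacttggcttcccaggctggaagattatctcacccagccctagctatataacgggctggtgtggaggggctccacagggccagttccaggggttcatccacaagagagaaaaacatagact
Ajuba: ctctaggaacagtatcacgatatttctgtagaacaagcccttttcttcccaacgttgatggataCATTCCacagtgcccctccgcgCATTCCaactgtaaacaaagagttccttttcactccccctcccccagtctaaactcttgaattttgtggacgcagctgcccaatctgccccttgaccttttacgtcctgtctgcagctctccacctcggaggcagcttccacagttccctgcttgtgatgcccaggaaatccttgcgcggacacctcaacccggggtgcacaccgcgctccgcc
Cyr61: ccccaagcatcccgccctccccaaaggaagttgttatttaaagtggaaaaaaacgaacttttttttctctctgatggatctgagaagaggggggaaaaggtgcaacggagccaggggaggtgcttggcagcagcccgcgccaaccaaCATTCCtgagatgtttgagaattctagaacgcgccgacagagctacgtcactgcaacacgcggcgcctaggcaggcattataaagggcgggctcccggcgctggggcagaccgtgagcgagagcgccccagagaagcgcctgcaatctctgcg

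GGAATG was present in at least 1 listed promoter of 14 of 25 members of the class with a promoter in the table (56%), against 1664 of 11252 genes tested with one (14.8%). Of the 14 members with a match 7 were higher, and of the 11 without one 7 were. Ankrd1, a stress-induced cardiac and wound-response repeat protein, had 2.44, 4.48, 5.7, 6.52 and 5.26 CPM in HF_C livers, against 0.191, 0.339, 0.0862 and 0.0483 CPM in LF_C livers (log2 fold change 4.81 ± 0.45, adjusted p = 1.6e-05; log2 fold change 5.44 without LF_C replicate 2). Ajuba, a LIM protein that binds LATS kinases, had 24.5, 22.6, 29, 35.1 and 25.7 CPM in HF_C livers, against 6.74, 6.14, 5.47 and 4.11 CPM in LF_C livers (log2 fold change 2.28 ± 0.17, adjusted p = 4.6e-06). Cyr61, a matricellular protein, had 25.8, 20.8, 23.3, 27.6 and 21.5 CPM in HF_C livers, against 12.9, 12.1, 16.2 and 13.8 CPM in LF_C livers (log2 fold change 0.79 ± 0.12, adjusted p = 3.0e-04). For these 3 genes every HF_C liver exceeded every LF_C liver. Myof, which repairs plasma membrane, and Tgfb2, a ligand that activates stellate cells, hold no GGAATG in the same window. Myof had 33.6, 22.8, 44.7, 29.3 and 34.7 CPM in HF_C livers, against 6.64, 7.45, 5.64 and 4.2 CPM in LF_C livers (log2 fold change 2.46 ± 0.21, adjusted p = 9.0e-06). Tgfb2 had 5.11, 4.93, 8.22, 7.06 and 5.64 CPM in HF_C livers, against 0.908, 0.465, 0.646 and 0.338 CPM in LF_C livers (log2 fold change 3.39 ± 0.29, adjusted p = 9.4e-06). Ctgf, the best known YAP target, had 12.3, 14.3, 22, 13.7 and 19.6 CPM in HF_C livers, against 7.22, 10.7, 4.95 and 6.28 CPM in LF_C livers (log2 fold change 1.16 ± 0.23, adjusted p = 0.00206).

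**Figure D4:**
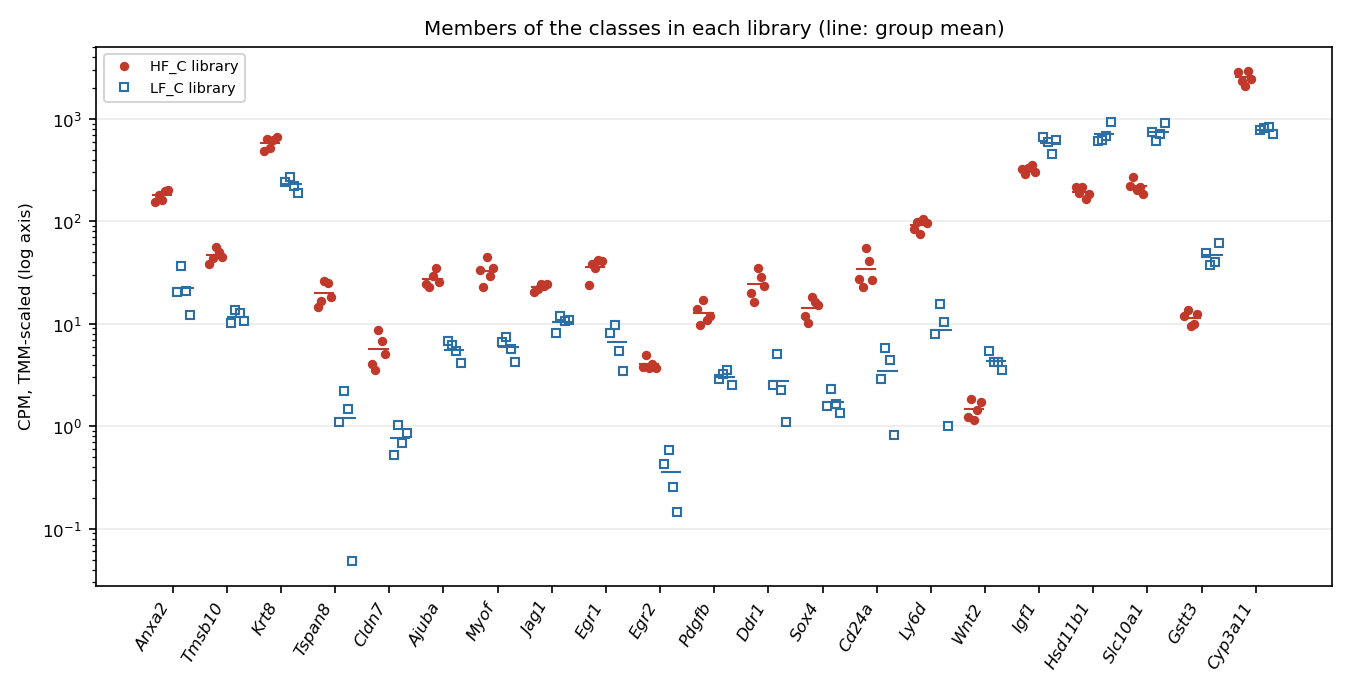
CPM of 21 named genes (log axis) in each library, with HF_C livers as filled circles left of the open squares of LF_C livers, and a line at each group mean. The genes drawn from Anxa2 to Ly6d, and Cyp3a11, have all HF_C livers above all LF_C livers, and Wnt2, Igf1, Hsd11b1, Slc10a1 and Gstt3 have all HF_C livers below.

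Immediate early genes, which are transcribed within minutes of a growth or stress signal without new protein synthesis, showed the same direction. Of 26, 17 were higher and 1 lower (median 1.01). Egr2 is shown because it holds a CArG box, the site bound by serum response factor, at 1 of its listed starts (chr10:67537316-67537615, plus strand, RefSeq, GRCm38.p6), with the box in capitals.
Egr2: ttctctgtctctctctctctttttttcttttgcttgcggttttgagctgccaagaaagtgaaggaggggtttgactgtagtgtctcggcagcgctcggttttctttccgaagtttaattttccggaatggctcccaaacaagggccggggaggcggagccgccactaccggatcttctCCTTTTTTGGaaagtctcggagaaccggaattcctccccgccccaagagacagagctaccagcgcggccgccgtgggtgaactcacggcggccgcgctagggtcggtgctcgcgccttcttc

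A CArG box was found in 3 of 21 class members with a promoter (14.3%), against 174 of 11252 genes tested (1.55%). Of the 3 members with a box 2 were higher, and of the 18 without one 13 were. Only the 250 bases before to 50 bases after a start site were searched. Members without a box there, Fos among them, may hold one further away. Egr2 had 3.78, 5, 3.7, 4.05 and 3.71 CPM in HF_C livers, against 0.43, 0.592, 0.258 and 0.145 CPM in LF_C livers (log2 fold change 3.47 ± 0.32, adjusted p = 1.4e-05). Egr1 had 23.9, 38.1, 34.7, 42 and 40.6 CPM in HF_C livers, against 8.12, 9.73, 5.47 and 3.48 CPM in LF_C livers. HF_C replicate 1 was the lowest of its group and still above all LF_C livers (log2 fold change 2.41 ± 0.26, adjusted p = 3.8e-05). Fos, a component of AP-1, had 2.89, 5.78, 4.12, 4.12 and 6.19 CPM in HF_C livers, against 2.15, 1.61, 0.862 and 0.821 CPM in LF_C livers (log2 fold change 1.76 ± 0.33, adjusted p = 0.00124). Ier5 averaged 20.2 ± 1.53 CPM in HF_C livers, against 8.24 ± 1.74 CPM in LF_C livers (SD, n = 5 and 4; log2 fold change 1.29 ± 0.14, adjusted p = 4.1e-05). Klf10, a TGF-beta induced repressor, was the lower member at -0.62, which did not pass with library totals (-0.37, adjusted p = 0.0867).

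Developmental signalling was uneven between pathways. In Notch signalling, a ligand on one cell triggers cleavage of the receptor on its neighbour, and in Hedgehog signalling ligands relieve the block on the transducer Smo. For these pathways together, 14 of 22 genes tested were higher and 2 lower (median 0.75). Jag1, the ligand whose loss causes bile duct paucity, had 20.2, 21.8, 24.6, 23.4 and 24.2 CPM in HF_C livers, against 8.17, 11.8, 10.7 and 11 CPM in LF_C livers (log2 fold change 1.13 ± 0.12, adjusted p = 3.2e-05). Heyl, a Notch target repressor, had 7.93, 8.49, 9.53, 7.84 and 9.66 CPM in HF_C livers, against 3.01, 2.84, 3.32 and 3.04 CPM in LF_C livers (log2 fold change 1.51 ± 0.14, adjusted p = 1.4e-05). Smo had 12.5, 10.9, 14.7, 9.12 and 11.1 CPM in HF_C livers, against 6.02, 6.56, 4.14 and 6.09 CPM in LF_C livers (log2 fold change 1.03 ± 0.17, adjusted p = 6.7e-04). Hhip, a decoy that binds Hedgehog ligands and is made by quiescent stellate and endothelial cells, was lower, at 0.286, 0.889, 0.262, 0.0338 and 0.241 CPM in HF_C livers, against 2.1, 2.96, 1.46 and 1.06 CPM in LF_C livers (log2 fold change -2.48 ± 0.56, adjusted p = 0.00432; log2 fold change -3.16 without HF_C replicate 2). The other lower call, Dll1 (-0.42, adjusted p = 0.0442), was lost under 13 alternatives, including without either LF_C replicate 4 or HF_C replicate 2 (adjusted p = 0.0974 and 0.0984).

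Wnt genes, which maintain the enzyme zonation around the central vein, showed no common direction. Of 30 tested, 6 were higher and 6 lower, close to the background shares, and the class median of -0.07 became 0.20 with library totals. Single ligands nevertheless moved in opposite directions. Wnt4 had 8.57, 8.19, 12.3, 7.23 and 7.57 CPM in HF_C livers, against 2.44, 2.96, 2.37 and 3.19 CPM in LF_C livers (log2 fold change 1.68 ± 0.19, adjusted p = 5.7e-05), and Wnt7b held 172 reads over the HF_C libraries, against 10 reads over the LF_C libraries. Wnt2, the main ligand of sinusoidal endothelium, had 1.24, 1.85, 1.15, 1.45 and 1.72 CPM in HF_C livers, against 5.45, 4.23, 4.22 and 3.57 CPM in LF_C livers (log2 fold change -1.56 ± 0.21, adjusted p = 1.7e-04). Lgr4, a receptor for the Wnt enhancers called R-spondins, had 44.1, 44.4, 43.4, 40.5 and 42.6 CPM in HF_C livers, against 74.1, 71.5, 67.3 and 60.5 CPM in LF_C livers (log2 fold change -0.67 ± 0.08, adjusted p = 5.5e-05). The pericentral Wnt targets Lgr5 and Axin2 did not pass, at 5.99 to 10.4 CPM in HF_C livers, against 5.5 to 13.3 CPM in LF_C livers for Lgr5 (adjusted p = 0.376) and 10.9 to 18.1 CPM in HF_C livers, against 11.7 to 15.7 CPM in LF_C livers for Axin2 (adjusted p = 0.872).

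Among growth factors and receptor tyrosine kinases, 23 of 41 tested were higher (56.1%) and 7 lower (17.1%), with a median of 0.65. Of all genes tested, 21.4% were higher and 19.2% lower. Pdgfb, the platelet-derived growth factor chain that drives stellate cell growth, had 14, 9.67, 17.1, 10.9 and 11.8 CPM in HF_C livers, against 2.91, 3.22, 3.58 and 2.51 CPM in LF_C livers (log2 fold change 2.05 ± 0.19, adjusted p = 1.5e-05). Ddr1, a receptor for collagen, had 19.9, 16.2, 35.3, 28.7 and 23.6 CPM in HF_C livers, against 2.53, 5.12, 2.28 and 1.11 CPM in LF_C livers (log2 fold change 3.15 ± 0.35, adjusted p = 5.0e-05). Areg, the EGF receptor ligand amphiregulin, was near the detection limit, with 90 reads over the HF_C libraries, against 5 reads over the LF_C libraries. Igf1, the growth hormone target secreted by hepatocytes, had 321, 290, 329, 355 and 305 CPM in HF_C livers, against 658, 589, 456 and 628 CPM in LF_C livers (log2 fold change -0.87 ± 0.11, adjusted p = 1.1e-04). Fgf1 had 79.3, 54.8, 66.6, 63.7 and 57.2 CPM in HF_C livers, against 114, 139, 117 and 162 CPM in LF_C livers (log2 fold change -1.05 ± 0.13, adjusted p = 8.6e-05). Both genes were thus lower in every HF_C liver than in any LF_C liver.

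Of the TNF superfamily and its signal carriers, 21 of 38 tested were higher and 1 lower (median 0.60). Tnfrsf12a, the receptor of TWEAK that is induced in progenitor cells and injured hepatocytes, had 18.8, 28.7, 21.9, 28.4 and 23.8 CPM in HF_C livers, against 9.27, 12.5, 12 and 7 CPM in LF_C livers (log2 fold change 1.25 ± 0.18, adjusted p = 2.4e-04). Tnfrsf21, death receptor 6, averaged 23.4 ± 1.81 CPM in HF_C livers, against 10.8 ± 2.34 CPM in LF_C livers (log2 fold change 1.12 ± 0.14, adjusted p = 1.1e-04). The lower member, Ltbr (-0.31, adjusted p = 0.0217), did not pass with library totals or without HF_C replicate 4, HF_C replicate 5 or LF_C replicate 1 (adjusted p 0.0501 to 0.0608). p53 targets and cell cycle inhibitors held 11 higher and 2 lower members of 29 (median 0.40), against 19 and 0 with library totals. The list also holds a cyclin, Ccnd1, among the higher members (log2 fold change 1.21), which is not an inhibitor. The lower members were the p53 targets Perp and Ei24, at -0.37 and -0.45 (adjusted p = 0.00361 and 0.00137). The other 16 did not pass, among them the p53 targets Mdm2 and Ccng1, at 0.02 and -0.04. Cdkn1a, the inhibitor p21, had 21.6, 37.6, 19.7, 32.2 and 37.7 CPM in HF_C livers, against 7.98, 15.8, 5.39 and 4.73 CPM in LF_C livers (log2 fold change 1.81 ± 0.33, adjusted p = 0.00123). Phlda3, a p53-induced brake on AKT, had 7.27, 6, 7.04, 9.63 and 6.78 CPM in HF_C livers, against 1.67, 2.45, 1.94 and 0.918 CPM in LF_C livers (log2 fold change 2.06 ± 0.25, adjusted p = 8.3e-05). Gdf15, a stress hormone, rose by 0.85 ± 0.25 (SE; adjusted p = 0.0161), and its ranges overlapped, at 15.6 to 33 CPM in HF_C livers, against 9.03 to 20.1 CPM in LF_C livers.

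Axon guidance families, which also steer vessels, epithelia and immune cells, passed as higher in 28 of 57 cases and as lower in 6 (median 0.52). With library totals 37 were higher and 1 lower. Sema4d, a semaphorin of lymphocytes and macrophages, had 19.5, 17, 26.2, 16.7 and 15.1 CPM in HF_C livers, against 2.63, 2.96, 2.67 and 1.59 CPM in LF_C livers (log2 fold change 2.93 ± 0.21, adjusted p = 4.6e-06). Sema5a had 8.89, 6.78, 10.9, 11.4 and 8.05 CPM in HF_C livers, against 1.67, 1.4, 1.42 and 0.918 CPM in LF_C livers (log2 fold change 2.76 ± 0.22, adjusted p = 7.1e-06). Unc5b, a netrin receptor, had 40.7, 33.9, 53.5, 44 and 43.8 CPM in HF_C livers, against 15.5, 17.3, 13.4 and 10.3 CPM in LF_C livers (log2 fold change 1.61 ± 0.16, adjusted p = 2.2e-05). Efna2 was low, at 0.222 to 1.05 CPM in HF_C livers, against 0.0956 to 0.215 CPM in LF_C livers, and its call (adjusted p = 0.0285) was lost without LF_C replicate 1 or LF_C replicate 2 (adjusted p = 0.0743 and 0.0591). Sema5b fell by 1.35 ± 0.18 on the log2 scale (SE; adjusted p = 1.3e-04). Sema3e had too few reads to be tested.

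Fetal liver and progenitor genes gave one of the largest class medians, 1.23, with 14 of 20 tested higher and 1 lower. Sox4, a transcription factor of bile duct development, had 11.9, 10.2, 18.3, 16.3 and 15.2 CPM in HF_C livers, against 1.58, 2.33, 1.64 and 1.35 CPM in LF_C livers (log2 fold change 3.05 ± 0.22, adjusted p = 4.6e-06). Prom1, the progenitor surface protein CD133, had 6.51, 5.26, 12.5, 8.11 and 7.98 CPM in HF_C livers, against 1.1, 1.18, 0.689 and 0.531 CPM in LF_C livers (log2 fold change 3.19 ± 0.31, adjusted p = 2.1e-05). Cd24a, a surface glycoprotein of duct and progenitor cells, had 27.2, 22.8, 55.4, 40.6 and 26.8 CPM in HF_C livers, against 2.91, 5.8, 4.48 and 0.821 CPM in LF_C livers (log2 fold change 3.28 ± 0.42, adjusted p = 1.1e-04). Scd2, the desaturase of fetal liver and brain, had 53.9, 57, 78.3, 67 and 75.8 CPM in HF_C livers, against 12.4, 16.5, 15.1 and 6.38 CPM in LF_C livers (log2 fold change 2.40 ± 0.23, adjusted p = 1.9e-05). Ly6d was at 85, 97.4, 75.3, 105 and 96.1 CPM in HF_C livers, against 7.98, 15.5, 10.3 and 1.01 CPM in LF_C livers (log2 fold change 3.39 ± 0.46, adjusted p = 1.5e-04). In LF_C replicate 4, Cd24a and Ly6d were the lowest of all libraries. Afp, the fetal albumin-like protein reactivated in many liver tumours, had 4.89, 3.45, 4.39, 3.62 and 4.06 CPM in HF_C livers, against 5.92, 4.1, 5.69 and 3.48 CPM in LF_C livers and did not pass (log2 fold change -0.23 ± 0.20, adjusted p = 0.366). Meg3, an imprinted noncoding RNA, was the lower member at -1.16, with adjusted p = 0.017, and missed without LF_C replicate 1 (0.0518) and with library totals (0.0595).

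The lysosome class was mixed. Of 56 tested, 18 were higher (32.1%) and 10 lower (17.9%), against 21.4% and 19.2% of all genes tested. The lower share was thus near that of all genes. With library totals 33 were higher and 0 lower (median 0.10, and 0.37 with library totals). The higher members included proteases of phagocytes and bone-resorbing cells. Ctss had 164, 134, 203, 139 and 151 CPM in HF_C livers, against 56, 57.5, 50.1 and 27.8 CPM in LF_C livers (log2 fold change 1.72 ± 0.20, adjusted p = 5.8e-05). Ctsk had 4.25, 4.41, 7.66, 5.81 and 5.43 CPM in HF_C livers, against 1.34, 1.44, 0.905 and 0.628 CPM in LF_C livers (log2 fold change 2.35 ± 0.28, adjusted p = 6.6e-05). Atp6v0d2, the proton pump subunit of macrophages and osteoclasts, had 10.9, 5.41, 11.9, 6.93 and 7.02 CPM in HF_C livers, against 1.53, 1.35, 1.64 and 2.22 CPM in LF_C livers (log2 fold change 2.32 ± 0.27, adjusted p = 6.0e-05). Widely expressed lysosomal proteases were divided. Lgmn was higher by 1.03 ± 0.18 and Ctsd by 0.40 ± 0.10 on the log2 scale (SE; adjusted p = 8.5e-04 and 0.0062), while Ctsh and Ctsz were lower, at -0.39 and -0.23 (adjusted p = 0.00278 and 0.0298). With library totals Ctsh was at -0.13 (adjusted p = 0.204) and Ctsz at 0.04 (adjusted p = 0.723), and the call of Ctsz was also lost without any of 7 of the libraries (adjusted p 0.0507 to 0.0865). Ctsl did not pass (-0.09, adjusted p = 0.409), nor did Ctsb (0.21, adjusted p = 0.0872), though it did by DESeq2 (0.0345), with library totals (0.00274) and without HF_C replicate 2 (0.0495). Among the lower members were Npc1, the cholesterol exporter, and Gaa, acid alpha-glucosidase. Npc1 averaged 156 ± 6.09 CPM in HF_C livers, against 202 ± 14.7 CPM in LF_C livers and Gaa 108 ± 5.38 CPM in HF_C livers, against 140 ± 9.93 CPM in LF_C livers (SD, n = 5 and 4). Their log2 fold changes of -0.38 and -0.37 (adjusted p = 0.00203 and 0.00231) became -0.11 for each with library totals and did not pass (adjusted p = 0.246 and 0.263).

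Phospholipase and eicosanoid genes, which make and break lipid mediators from arachidonic acid, passed as higher in 11 of 26 cases and as lower in 4 (median 0.51). With library totals 14 were higher and 2 lower. The higher members included enzymes found mainly in blood cells, whose marker sums differed in direction, with T and NK cell and neutrophil sums higher, erythroid sums lower and macrophage and B and plasma cell sums overlapping between the groups. Hpgds, the haematopoietic prostaglandin D synthase, had 10.3, 7.52, 13.7, 7.7 and 9.08 CPM in HF_C livers, against 2.91, 2.96, 2.58 and 2.56 CPM in LF_C livers (log2 fold change 1.81 ± 0.20, adjusted p = 4.2e-05). Tbxas1, thromboxane synthase, had 13.2, 10.4, 14.8, 8.72 and 13.6 CPM in HF_C livers, against 3.87, 5.59, 4.83 and 3.33 CPM in LF_C livers (log2 fold change 1.46 ± 0.20, adjusted p = 1.6e-04). Pla2g7, which hydrolyses platelet-activating factor and oxidised phospholipids, had 16.6, 11.2, 23.8, 13.9 and 16.7 CPM in HF_C livers, against 6.83, 8.17, 6.03 and 4.98 CPM in LF_C livers (log2 fold change 1.34 ± 0.21, adjusted p = 4.7e-04). The lower members, 15.4% of the class against 19.2% of all genes tested, included enzymes that inactivate the mediators. Hpgd, which inactivates prostaglandins, had 94.5, 92.5, 77.3, 84.7 and 88.7 CPM in HF_C livers, against 133, 120, 152 and 159 CPM in LF_C livers (log2 fold change -0.69 ± 0.10, adjusted p = 2.1e-04). Ephx2, soluble epoxide hydrolase, had 684, 757, 571, 733 and 671 CPM in HF_C livers, against 875, 971, 1001 and 1285 CPM in LF_C livers (log2 fold change -0.60 ± 0.12, adjusted p = 0.00228). Alox5ap, the partner of 5-lipoxygenase, did not pass, at 3.26 to 4.94 CPM in HF_C livers, against 0.773 to 3.49 CPM in LF_C livers (adjusted p = 0.0622), but passed by DESeq2 (0.0272), with library totals (0.0282) and without HF_C replicate 2, LF_C replicate 1 or LF_C replicate 4 (0.0437 to 0.0482).

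Sphingolipid genes had no common direction: 9 of 33 were higher (27.3%) and 8 lower (24.2%), against 21.4% and 19.2% of all genes tested. The median of -0.07 was 0.21 with library totals, where 12 were higher and 1 lower. Genes of ceramide release and sphingosine-1-phosphate signalling were among the higher members. Smpd3, neutral sphingomyelinase, had 43.4, 27.3, 49.1, 43.9 and 33 CPM in HF_C livers, against 20, 7.32, 9.78 and 2.61 CPM in LF_C livers (log2 fold change 1.99 ± 0.40, adjusted p = 0.00223). Sphk1, sphingosine kinase, had 3.46, 3.08, 5.21, 5.68 and 3.03 CPM in HF_C livers, against 0.573, 1.27, 0.172 and 0.676 CPM in LF_C livers (log2 fold change 2.59 ± 0.42, adjusted p = 4.9e-04). S1pr2, a receptor for sphingosine-1-phosphate, had 28.9, 27.2, 30.1, 28.1 and 27.8 CPM in HF_C livers, against 10.6, 9.52, 12 and 7.54 CPM in LF_C livers, with little spread in either group (log2 fold change 1.52 ± 0.12, adjusted p = 6.4e-06). St3gal5, which makes the ganglioside GM3, was lower, at 92.6, 131, 113, 109 and 107 CPM in HF_C livers, against 196, 358, 243 and 271 CPM in LF_C livers (log2 fold change -1.27 ± 0.15, adjusted p = 7.8e-05).

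Several metabolic steps have a liver form of the enzyme and a form of other tissues, and in 6 of the 7 pairs described here the balance differed between the groups. Within a library the ratio of such a pair does not depend on scaling. Of 12 pairs listed, 11 were tested, since Bcat1 had no reads in 5 libraries, and p-values were adjusted over the 11. In 6 of the 7 described, every HF_C liver had a higher ratio of the other form to the liver form, in reads per kilobase, than any LF_C liver. Each of these had exact permutation p = 0.0159 (two-sided), the smallest that 5 against 4 allows, and adjusted p = 0.0194. Pkm, the muscle and proliferating-cell pyruvate kinase, stood relative to the liver kinase Pklr at 32.9, 25.1, 54.1, 33.3 and 43.1% in the HF_C livers, against 7.94, 7.12, 6.35 and 6.9% in the LF_C livers. Pkm alone had 70.5, 73.8, 98.7, 71.4 and 102 CPM in HF_C livers, against 30.5, 30.9, 27.3 and 20.3 CPM in LF_C livers (log2 fold change 1.61 ± 0.16, adjusted p = 2.0e-05), and Pklr fell by 0.76 on the log2 scale (adjusted p = 0.00154). Hk2, the hexokinase of muscle and proliferating cells, had 18.2, 18.9, 20.4, 19.4 and 16.2 CPM in HF_C livers, against 3.25, 3, 2.63 and 1.26 CPM in LF_C livers (log2 fold change 2.87 ± 0.21, adjusted p = 4.6e-06).

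For arginase 2 over arginase 1 (Arg2 to Arg1) the same ratio was 0.0687 to 0.105% in HF_C livers, against 0.0117 to 0.0287% in LF_C livers. Brain over liver glycogen phosphorylase (Pygb to Pygl) was 2.75 to 8.56% in HF_C livers, against 0.485 to 1.76% in LF_C livers, and platelet over liver phosphofructokinase (Pfkp to Pfkl) 14.6 to 21.3% in HF_C livers, against 5.53 to 11.8% in LF_C livers. The ratio was also higher for Slc2a1 to Slc2a2 (3.33 to 4.27% in HF_C livers, against 1.61 to 2.9% in LF_C livers) and Mat2a to Mat1a (4.71 to 6.7% in HF_C livers, against 3.15 to 4.34% in LF_C livers). In both pairs the other form itself did not pass, at log2 fold changes of 0.34 and -0.12, and the liver form was lower. Gys1 to Gys2, muscle over liver glycogen synthase, overlapped between groups, with exact permutation p = 0.0476 and adjusted p = 0.0524. It passed without HF_C replicate 2 (exact permutation p = 0.0286, adjusted p = 0.0286), with a log2 ratio difference of 0.89 against 0.72 with all libraries. Counted as a class, non-hepatic and shared glycolytic genes had 11 of 22 members higher and 2 lower (median 0.35), against 17 and 1 with library totals. One of the lower calls, Tpi1, vanished with library totals, at 0.00 instead of -0.26, and was lost without HF_C replicate 1, HF_C replicate 4 or LF_C replicate 1 (adjusted p 0.0526 to 0.0631). Macrophage, stellate and bile duct cells are known to use several of these other forms. Of their marker sums, the stellate and cholangiocyte ones, the latter mostly Spp1, were higher in every HF_C liver, while the macrophage ones overlapped between the groups. Which cells held these forms here, and the part of such cells in the ratios, was not tested.

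**Figure D5:**
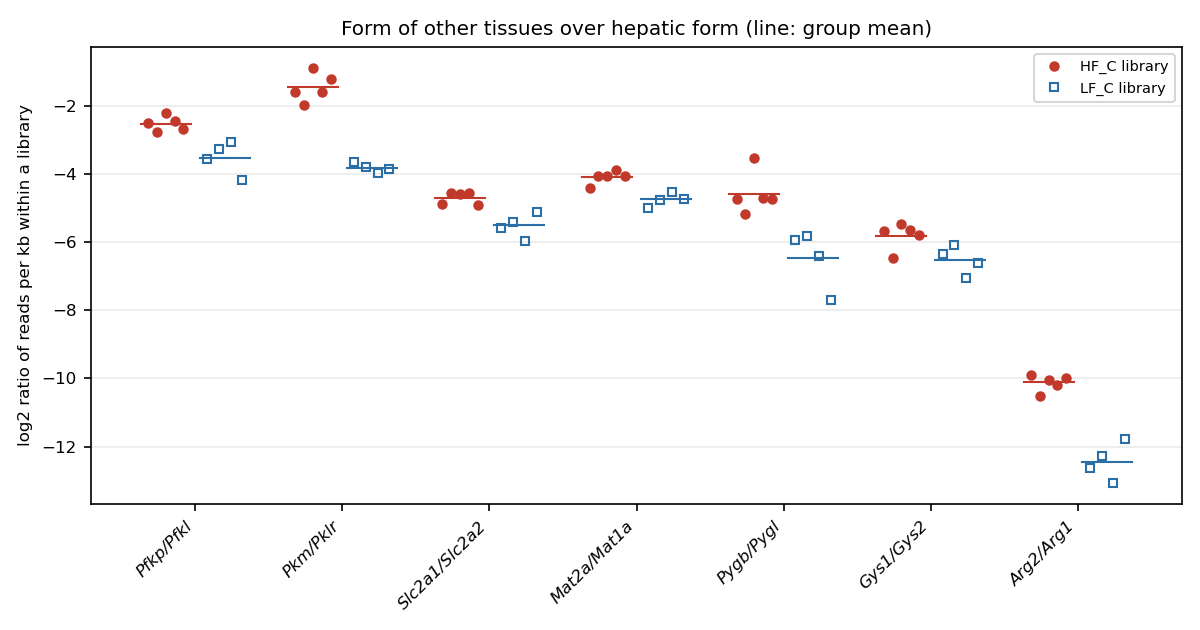
Log2 ratio, within a library, of reads per kilobase of the form of other tissues to the hepatic form for 7 enzyme and transporter pairs. HF_C livers are filled circles left of the open squares of LF_C livers, with a line at each group mean. For Pkm to Pklr the mean is -1.46 in HF_C livers and -3.83 in LF_C livers, and for Gys1 to Gys2 the groups overlap.

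Nuclear genes of the respiratory chain and ATP synthase were lower in HF_C livers, to an extent that depended on the scaling. Of 77 tested, 50 were lower and 0 higher by edgeR, with 65 and 1 at an unadjusted p under 0.05 and 53 and 0 by DESeq2. The median was -0.38, or -0.36 relative to all genes. With library totals 5 were lower and 1 higher, with a median of -0.11. Without LF_C replicate 4, where these genes were highest, 34 were lower, and without HF_C replicate 1, HF_C replicate 3 or HF_C replicate 5 the counts were 30, 25 and 31. Sdhd, a membrane anchor of complex II, had 157, 167, 137, 149 and 149 CPM in HF_C livers, against 243, 220, 221 and 251 CPM in LF_C livers (log2 fold change -0.62 ± 0.08, adjusted p = 1.4e-04). Atp5g1, a c-ring subunit of ATP synthase, had 84.3, 92.4, 78, 78.5 and 89.9 CPM in HF_C livers, against 132, 120, 124 and 183 CPM in LF_C livers (log2 fold change -0.72 ± 0.12, adjusted p = 6.9e-04). Ndufb5, of complex I, had 32.3, 36.6, 29.2, 31.9 and 34.7 CPM in HF_C livers, against 48.8, 42.4, 44.5 and 64.1 CPM in LF_C livers (log2 fold change -0.60 ± 0.12, adjusted p = 0.00188). For these 3 genes every HF_C liver lay below every LF_C liver.

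Mitochondrial ribosomal proteins followed, with 31 of 75 lower and 0 higher by edgeR (41 and 1 at an unadjusted p under 0.05, 30 and 0 by DESeq2). The class median of -0.27 was 0.00 with library totals, where 3 were lower and 4 higher, and without HF_C replicate 5 the lower count was 20. Mrpl47 had 7.52, 6.78, 8.15, 7.4 and 6.88 CPM in HF_C livers, against 11.4, 10.5, 12.1 and 17.3 CPM in LF_C livers (log2 fold change -0.80 ± 0.15, adjusted p = 0.00134). Cytosolic ribosomal proteins and the proteasome, by contrast, held few calls. Of 81 ribosomal proteins, 1 was higher and 3 lower, although library totals gave 44 higher and 1 lower, and without LF_C replicate 4 there were 6 higher and 1 lower. Without HF_C replicate 1 or HF_C replicate 3, 1 ribosomal protein was lower. Of 43 proteasome subunits, 1 was higher and 4 lower (median -0.13), against 9 higher and 0 lower with library totals (median 0.13), and 7 lower without HF_C replicate 2 or 2 without LF_C replicate 3.

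Peroxisomal genes were mostly lower: 35 of 53 were lower and 1 higher (median -0.41), and 15 were still lower with library totals. Hacl1, which shortens phytanic acid by alpha-oxidation, had 102, 134, 88.8, 90.9 and 82.1 CPM in HF_C livers, against 219, 239, 238 and 328 CPM in LF_C livers (log2 fold change -1.36 ± 0.15, adjusted p = 5.1e-05). Pecr, an enoyl-CoA reductase, had 98.3, 98.1, 84.8, 94.2 and 95.1 CPM in HF_C livers, against 170, 182, 171 and 242 CPM in LF_C livers (log2 fold change -1.02 ± 0.11, adjusted p = 3.5e-05). Pipox, which oxidises pipecolic acid and sarcosine, had 161, 153, 140, 147 and 142 CPM in HF_C livers, against 267, 258, 256 and 389 CPM in LF_C livers (log2 fold change -0.98 ± 0.12, adjusted p = 1.0e-04). LF_C replicate 4 was the highest library for all 3, and HF_C replicates lay close together for Pecr and Pipox.

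Amino acid breakdown and the urea cycle made up the class with the highest share of lower genes, 45 of 56 (80.4%), with 2 higher and a median of -0.58. With library totals 27 were lower, and 41 were lower without LF_C replicate 4. The hepatocyte marker sum, which shares the urea cycle genes Cps1 and Ass1 with this class, was lower as well, and its part in this and the next classes was not tested. Arg1, the last enzyme of the urea cycle (ENSMUSG00000019987, chr10:24915208-24927470), had 656, 613, 681, 614 and 753 CPM in HF_C livers, against 1264, 1307, 1145 and 1742 CPM in LF_C livers (log2 fold change -1.04 ± 0.12, adjusted p = 6.9e-05). Cps1, the first, had 1613, 1455, 1318, 1484 and 1915 CPM in HF_C livers, against 2553, 2236, 2256 and 3269 CPM in LF_C livers (log2 fold change -0.73 ± 0.14, adjusted p = 0.00157). Tat and Hpd act in tyrosine breakdown. Tat had 385, 446, 376, 358 and 629 CPM in HF_C livers, against 943, 676, 826 and 1591 CPM in LF_C livers (log2 fold change -1.20 ± 0.23, adjusted p = 0.00174). Hpd had 1089, 764, 778, 887 and 916 CPM in HF_C livers, against 1570, 1352, 1406 and 2938 CPM in LF_C livers (log2 fold change -1.03 ± 0.21, adjusted p = 0.00237). In both, LF_C replicate 4 was the highest library, yet every other LF_C liver also exceeded every HF_C liver. Kmo, of the tryptophan-kynurenine path, had 219, 235, 179, 220 and 214 CPM in HF_C livers, against 388, 333, 343 and 391 CPM in LF_C livers (log2 fold change -0.77 ± 0.09, adjusted p = 8.6e-05). Uroc1, of histidine breakdown, averaged 311 ± 28.5 CPM in HF_C livers, against 606 ± 111 CPM in LF_C livers (SD, n = 5 and 4; log2 fold change -0.97 ± 0.12, adjusted p = 8.8e-05). Gpt2, mitochondrial alanine aminotransferase, was higher, at 857, 810, 905, 862 and 798 CPM in HF_C livers, against 638, 658, 609 and 572 CPM in LF_C livers (log2 fold change 0.45 ± 0.08, adjusted p = 0.00111).

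Amino acid transporters split evenly, 10 of 29 higher (34.5%) and 11 lower (37.9%), against 21.4% and 19.2% of all genes tested. Their median of -0.21 was 0.06 with library totals. That scaling gave 11 higher and 5 lower. The neutral amino acid exchangers Slc1a4 and Slc1a5, which growing cells use for glutamine and serine, were higher. Slc1a4 had 12.3, 16.6, 14.4, 14.1 and 16.1 CPM in HF_C livers, against 5.06, 6.09, 6.68 and 3.04 CPM in LF_C livers (log2 fold change 1.49 ± 0.20, adjusted p = 1.4e-04), and Slc1a5 had 9.2, 8.78, 12.4, 9.33 and 8.22 CPM in HF_C livers, against 1.82, 3.72, 2.33 and 3.48 CPM in LF_C livers (log2 fold change 1.75 ± 0.22, adjusted p = 9.6e-05). Slc38a3, the glutamine transporter of hepatocytes, had 974, 876, 901, 846 and 960 CPM in HF_C livers, against 2201, 1325, 1452 and 2041 CPM in LF_C livers (log2 fold change -0.95 ± 0.14, adjusted p = 3.5e-04).

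Detoxification genes were mostly lower. Of cytochrome P450 families 1 to 4, 31 of 52 were lower and 5 higher (median -0.58), and 24 were lower with library totals. Reads of close paralogs in the Cyp2c, Cyp3a and Ugt1a clusters can be split between genes or lost in counting, so single members there are uncertain. Cyp3a11, the main inducible drug-metabolising P450 of mouse liver, went against the class, at 2883, 2362, 2093, 2897 and 2435 CPM in HF_C livers, against 780, 817, 833 and 706 CPM in LF_C livers (log2 fold change 1.69 ± 0.12, adjusted p = 4.6e-06). Cyp1b1, a P450 of stellate and other mesenchymal cells, was also higher, averaging 11.9 ± 1.38 CPM in HF_C livers, against 2.35 ± 0.565 CPM in LF_C livers (log2 fold change 2.34 ± 0.18, adjusted p = 5.1e-06). Cyp2u1 had 4.89, 6.93, 3.5, 4.05 and 6.67 CPM in HF_C livers, against 16.3, 13.4, 16.4 and 16.1 CPM in LF_C livers (log2 fold change -1.58 ± 0.19, adjusted p = 8.5e-05). Cyp2d40 averaged 36.3 ± 9.52 CPM in HF_C livers, against 88.2 ± 12.8 CPM in LF_C livers (log2 fold change -1.28 ± 0.17, adjusted p = 1.4e-04). Cyp2e1, the ethanol and acetaminophen oxidase of pericentral hepatocytes, had 5762, 4959, 4327, 4915 and 3650 CPM in HF_C livers, against 6795, 5563, 6510 and 9445 CPM in LF_C livers, with overlap between groups (log2 fold change -0.58 ± 0.17, adjusted p = 0.015), and with library totals it was at -0.31 (adjusted p = 0.11). The caffeine oxidase Cyp1a2 had 96.2, 118, 198, 92.7 and 61.5 CPM in HF_C livers, against 206, 130, 181 and 319 CPM in LF_C livers (adjusted p = 0.0353). Its call was lost in 9 alternatives, among them without LF_C replicate 1, LF_C replicate 4, HF_C replicate 1, HF_C replicate 2, HF_C replicate 4 or HF_C replicate 5 (adjusted p 0.0593 to 0.116).

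Conjugating enzymes followed, with 28 of 51 lower and 2 higher (median -0.51; 19 lower with library totals). Gstt3, a theta-class glutathione transferase, had 11.8, 13.7, 9.59, 9.97 and 12.4 CPM in HF_C livers, against 48.7, 37.6, 40.2 and 62.1 CPM in LF_C livers (log2 fold change -2.04 ± 0.15, adjusted p = 4.6e-06). Ugt2a3, a glucuronosyltransferase, had 99.7, 111, 89.2, 105 and 105 CPM in HF_C livers, against 213, 209, 186 and 288 CPM in LF_C livers (log2 fold change -1.13 ± 0.12, adjusted p = 3.6e-05). Nnmt, which methylates nicotinamide, had 34.7, 15.4, 30.6, 24.3 and 34.5 CPM in HF_C livers, against 98.7, 60.5, 46.3 and 151 CPM in LF_C livers (log2 fold change -1.67 ± 0.32, adjusted p = 0.00144). Sult1e1, oestrogen sulfotransferase, was among the 2 higher members, at 3.52, 1.07, 1.41, 1.39 and 0.825 CPM in HF_C livers, against 0.573, 0, 0.0431 and 0.29 CPM in LF_C livers. HF_C replicate 1 held the highest value (log2 fold change 2.89 ± 0.73, adjusted p = 0.00775; log2 fold change 3.91 without LF_C replicate 1). Gstp1 did not pass, at 284 to 589 CPM in HF_C livers, against 455 to 708 CPM in LF_C livers (adjusted p = 0.0508), although it did without HF_C replicate 2 (adjusted p = 0.00451), LF_C replicate 1 (0.0376) or LF_C replicate 4 (0.0414) and by DESeq2 (0.0284).

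Organic ion and bile salt transporters were lower in 18 of 44 cases (40.9%) and higher in 7 (15.9%), against 19.2% and 21.4% of all genes tested (median -0.33). With library totals 12 were lower and 12 higher, a scaling that called 886 of all 14772 genes tested lower and 5309 higher. Slco1b2, the hepatocyte uptake carrier for bilirubin and statins, had 1191, 1114, 984, 1138 and 1007 CPM in HF_C livers, against 1487, 1470, 1623 and 1675 CPM in LF_C livers (log2 fold change -0.53 ± 0.09, adjusted p = 8.5e-04). Slco2a1, the prostaglandin carrier, had 27.8, 20.1, 27.4, 22.6 and 23.1 CPM in HF_C livers, against 48.8, 57.5, 49.9 and 62.7 CPM in LF_C livers (log2 fold change -1.18 ± 0.11, adjusted p = 1.9e-05). The efflux pump gene Abcc5 was higher, at 26.7, 28.2, 30.8, 26.9 and 29.6 CPM in HF_C livers, against 10.9, 12.4, 12.1 and 13.6 CPM in LF_C livers (log2 fold change 1.22 ± 0.09, adjusted p = 4.6e-06). Complement and coagulation proteins made by hepatocytes were lower in 27 of 45 cases and higher in 2 (median -0.37; 11 lower with library totals). C8b, part of the membrane attack complex, had 49.5, 50.1, 54.6, 65.5 and 53.9 CPM in HF_C livers, against 132, 98.5, 110 and 172 CPM in LF_C livers (log2 fold change -1.23 ± 0.15, adjusted p = 7.7e-05). F7, which starts coagulation with tissue factor, had 53.1, 39.1, 47.9, 43.1 and 46.6 CPM in HF_C livers, against 100, 84.7, 79.9 and 136 CPM in LF_C livers (log2 fold change -1.12 ± 0.15, adjusted p = 1.3e-04). F11 averaged 43.5 ± 3.56 CPM in HF_C livers, against 60.2 ± 9.47 CPM in LF_C livers (log2 fold change -0.47 ± 0.11, adjusted p = 0.00453), which did not pass with library totals (-0.19, adjusted p = 0.166). C9 was higher, at 361 to 436 CPM in HF_C livers, against 251 to 331 CPM in LF_C livers (log2 fold change 0.36 ± 0.10, adjusted p = 0.0133). C6 overlapped, at 110 to 276 CPM in HF_C livers, against 105 to 155 CPM in LF_C livers, and did not pass (adjusted p = 0.0874), though it did by DESeq2 (0.0443), with library totals (0.0168) and without HF_C replicate 1 (0.0197) or HF_C replicate 3 (0.0436).

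Steroid hormone metabolism was lower in 13 of 24 genes and higher in 1 (median -0.41; 9 lower with library totals). Hsd11b1, which turns inactive glucocorticoid into its active form, had 218, 189, 217, 164 and 183 CPM in HF_C livers, against 610, 620, 687 and 922 CPM in LF_C livers. The highest HF_C liver had 218 CPM and the lowest LF_C liver 610 CPM (log2 fold change -1.87 ± 0.14, adjusted p = 4.6e-06). Akr1d1, which reduces steroids and bile acid intermediates, had 121, 73.4, 92.4, 73 and 72.8 CPM in HF_C livers, against 235, 197, 228 and 265 CPM in LF_C livers (log2 fold change -1.42 ± 0.15, adjusted p = 3.9e-05). Hsd17b13, a lipid droplet enzyme linked to human liver disease risk, had 472 to 618 CPM in HF_C livers, against 613 to 815 CPM in LF_C livers (log2 fold change -0.39 ± 0.11, adjusted p = 0.015), and -0.13 with library totals (adjusted p = 0.37). Retinoid genes were lower in 14 of 31 cases (45.2%) and higher in 7 (22.6%), against 19.2% and 21.4% of all genes tested. Their median was -0.29, and with library totals 4 were lower and 8 higher. Aldh1a2, which makes retinoic acid, held 224 reads over the HF_C libraries, against 7 reads over the LF_C libraries. Rdh11, a retinal reductase, had 22.8, 52.3, 26.1, 26.4 and 33.1 CPM in HF_C livers, against 103, 64.4, 98.7 and 55.4 CPM in LF_C livers (log2 fold change -1.32 ± 0.25, adjusted p = 0.0013). Cyp26a1, which degrades retinoic acid and is a retinoic acid target, did not pass, at 1.89 to 6.98 CPM in HF_C livers, against 1.99 to 11.3 CPM in LF_C livers (adjusted p = 0.885). Aldh1a3 passed (adjusted p = 0.0371) but not without LF_C replicates 2, 3 or 4 or HF_C replicates 1, 2 or 3 (adjusted p 0.0514 to 0.0946).

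Of NRF2 and thiol defence genes, 8 of 33 were higher (24.2%) and 4 lower (12.1%), against 21.4% and 19.2% of all genes tested. Besides NRF2 targets, the list holds NRF2 itself, its inhibitor and glutathione peroxidases, so its count is not one of NRF2 targets alone. The class median was 0.07, and library totals gave 14 higher and 0 lower. The letters TGACNNNGC of the antioxidant response element stood in the promoters of 11 of 29 members (37.9%), against 1908 of 11252 genes tested (17%). Of those 11 members 1 was higher and 1 lower, and of the 18 without a match 7 and 2 were. Elements outside the 250 bases before to 50 bases after a start site were not searched for. The best known NRF2 targets did not pass, with Nqo1 at 10.2 to 16 CPM in HF_C livers, against 7.97 to 13.5 CPM in LF_C livers (adjusted p = 0.431) and Hmox1 at 30.3 to 58.7 CPM in HF_C livers, against 15.5 to 34.7 CPM in LF_C livers (adjusted p = 0.0946), and Hmox1 passed with library totals (log2 fold change 0.76, adjusted p = 0.0279). Gpx3, the secreted glutathione peroxidase, was higher, at 44, 23.8, 65.1, 48.2 and 38.8 CPM in HF_C livers, against 9.08, 11.4, 8.66 and 7.68 CPM in LF_C livers (log2 fold change 2.25 ± 0.24, adjusted p = 4.1e-05). Metal handling genes had no common direction, with 9 of 30 higher and 9 lower (30% each), against 21.4% and 19.2% of all genes tested. Their median of -0.03 was 0.23 with library totals. That scaling gave 11 higher and 6 lower. Slc39a4, a zinc importer best known from the gut, had 82, 66.6, 85.4, 83.3 and 59.2 CPM in HF_C livers, against 3.68, 13.8, 13 and 19.9 CPM in LF_C livers (log2 fold change 2.58 ± 0.33, adjusted p = 1.2e-04). Slc40a1, the iron exporter ferroportin, averaged 153 ± 19.3 CPM in HF_C livers, against 236 ± 16.9 CPM in LF_C livers (log2 fold change -0.62 ± 0.10, adjusted p = 5.3e-04). Mt2, a metallothionein, passed at 1.09 (adjusted p = 0.0317), but not without HF_C replicate 1, HF_C replicate 3, LF_C replicate 2 or LF_C replicate 3 (adjusted p 0.0684 to 0.0875). Mt1 did not pass (adjusted p = 0.246), nor did the iron hormone hepcidin (Hamp), at 57.3 to 208 CPM in HF_C livers, against 113 to 484 CPM in LF_C livers (adjusted p = 0.101, or 0.0302 without LF_C replicate 2). The other hepcidin gene, Hamp2, was lower, at 2.67 to 19.8 CPM in HF_C livers, against 22.8 to 222 CPM in LF_C livers (log2 fold change -2.89 ± 0.70, adjusted p = 0.00614). LF_C replicate 4 held its highest value.

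Immunoglobulin genes mark B cells and plasma cells. Only 10 of 181 in the table had enough reads to be tested, and by edgeR none passed in either direction (1 higher and 0 lower at an unadjusted p under 0.05, and 1 higher and 0 lower by DESeq2). Ighm, the IgM heavy chain, had 27.8, 20.6, 30.6, 19 and 16.8 CPM in HF_C livers, against 25.6, 11.8, 10 and 11 CPM in LF_C livers (adjusted p = 0.0744). LF_C replicate 1 was its high LF_C library, and without it Ighm passed (log2 fold change 1.07, adjusted p = 0.00195). Igkc, the kappa light chain, had 13, 4.56, 13.7, 12.8 and 9.87 CPM in HF_C livers, against 8.36, 9.14, 6.55 and 8.89 CPM in LF_C livers (adjusted p = 0.256), and passed without HF_C replicate 2, its lowest library (log2 fold change 0.60, adjusted p = 0.00888). Igj, the joining chain of IgM and IgA, had 1.11 to 5.43 CPM in HF_C livers, against 2.01 to 3.28 CPM in LF_C livers (adjusted p = 0.594).

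The most extreme fold changes, taken among protein-coding genes that passed, whose groups did not overlap and whose higher group averaged 2 CPM or more, came from several of these themes and from outside them. Unnamed gene models were passed over. The 10 highest had log2 fold changes of 5.10 to 6.81 (the top value, of Spire2, was 7.74 without LF_C replicate 2), and the 10 lowest of -7.17 to -3.09. Spire2, an actin nucleation factor, was at the top of the list and held 635 reads over the HF_C libraries, against 3 reads over the LF_C libraries. Aqp7, a glycerol channel best known from fat cells, held 1020 reads over the HF_C libraries, against 7 reads over the LF_C libraries. Shc2, an adaptor of receptor tyrosine kinases, had 24.5, 18.9, 33.7, 39.8 and 24.1 CPM in HF_C livers, against 0.43, 1.23, 0.172 and 0.58 CPM in LF_C livers (log2 fold change 5.52 ± 0.38, adjusted p = 4.4e-06; log2 fold change 6.17 without LF_C replicate 2). Scube3, a secreted protein that activates TGF-beta receptors, had 11, 5, 14.5, 11.9 and 6.74 CPM in HF_C livers, against 0.0478, 0.381, 0.215 and 0.483 CPM in LF_C livers (log2 fold change 5.10 ± 0.46, adjusted p = 1.3e-05). Lrtm2 was uneven, with 2 HF_C libraries, replicates 1 and 3, well above the other 3, and held 556 reads over the HF_C libraries, against 7 reads over the LF_C libraries.

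At the other end, 2 P450 genes of the Cyp2c cluster, whose reads are uncertain as said above, had almost no reads in HF_C livers and an uneven level in LF_C livers. Cyp2c40 had 0, 0.111, 0.0327, 0 and 0.103 CPM in HF_C livers, against 1.24, 4.78, 2.8 and 21.4 CPM in LF_C livers (log2 fold change -7.17 ± 1.00, adjusted p = 2.0e-04). Cyp2c69 had 0.127, 0.0741, 0.0327, 0.101 and 0.0344 CPM in HF_C livers, against 0.956, 2.29, 1.21 and 12.8 CPM in LF_C livers (log2 fold change -5.76 ± 0.90, adjusted p = 4.0e-04). LF_C replicate 4 was the highest library for both, and without it the log2 fold changes were -5.82 for Cyp2c40 and -4.24 for Cyp2c69, both still passing. Hsd3b5, a hydroxysteroid dehydrogenase of mouse liver, had 0.0952, 0.63, 0.131, 0.338 and 0 CPM in HF_C livers, against 27.1, 0.846, 20.9 and 27.7 CPM in LF_C livers. LF_C replicate 2 was close to the highest HF_C liver and far below the other LF_C livers (log2 fold change -6.34 ± 0.89, adjusted p = 2.0e-04; log2 fold change -7.03 without HF_C replicate 2). Cd163, a haemoglobin scavenger receptor of macrophages, had 0.603, 0.371, 0.557, 0.439 and 4.09 CPM in HF_C livers, against 28.4, 43.4, 31.6 and 13.5 CPM in LF_C livers (log2 fold change -4.59 ± 0.60, adjusted p = 1.3e-04), and was at -5.86 without HF_C replicate 5. Acot3, a peroxisomal acyl-CoA thioesterase, had 8.16, 7.6, 7.23, 3.82 and 2.61 CPM in HF_C livers, against 60.5, 96.9, 88.6 and 113 CPM in LF_C livers (log2 fold change -3.93 ± 0.30, adjusted p = 4.6e-06). Lrtm1 had 0.349, 1.85, 1.05, 0.912 and 0.585 CPM in HF_C livers, against 14.8, 5.97, 11.6 and 13.6 CPM in LF_C livers (log2 fold change -3.60 ± 0.39, adjusted p = 3.8e-05). Trhde, which degrades thyrotropin-releasing hormone, had 0.508, 0.963, 0.36, 0.541 and 0.653 CPM in HF_C livers, against 4.87, 3.89, 6.07 and 5.8 CPM in LF_C livers (log2 fold change -3.09 ± 0.27, adjusted p = 1.1e-05). Cxcl13, a B cell chemokine, had 0.159, 0.185, 0.295, 0.135 and 1.07 CPM in HF_C livers, against 10.5, 3.68, 4.05 and 2.71 CPM in LF_C livers (log2 fold change -3.81 ± 0.58, adjusted p = 3.5e-04; log2 fold change -4.71 without HF_C replicate 5), with HF_C replicate 5 the highest of its group. Mup16, a major urinary protein whose near-identical neighbours make its reads uncertain, had 0.0635, 1.37, 0.36, 0.135 and 0.344 CPM in HF_C livers, against 5.73, 1.99, 4.27 and 5.94 CPM in LF_C livers (log2 fold change -3.32 ± 0.60, adjusted p = 0.00111; log2 fold change -4.28 without HF_C replicate 2).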

How the data were processed

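Whole-liver RNA of 9 mice (5 HF_C, 4 LF_C; 1 library each) was sequenced from non-stranded libraries, per the labels' protocols. Per the submitters' processing notes, reads were aligned with STAR 2.6.1 to GRCm38 and counted per gene with HTSeq 0.6.1; the notes also name DESeq2, and the annotation release is not given in the sources used here. The deposited table holds, per library, the authors' whole read count per gene and FPKM (fragments per kilobase of gene length, scaled to library size). The other deposited tables, of other groups, were not used here.

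Counts were tested with edgeR 4.0.16 (R 4.3.3): filterByExpr (minimum count 10, total 15), trimmed mean of M-values, quasi-likelihood fit, Benjamini-Hochberg adjustment over 14772 of 22464 genes, threshold 0.05. DESeq2 1.42.0, other scalings and filters, a replicate block and leaving out each library were alternatives. Isozyme ratios used counts per kilobase of the deposited gene length (FPKM as an alternative) and an exact permutation test in SciPy 1.17.1. The edgeR step was tested on simulated data. Replicate numbers did not pair the groups. P-values measure the spread between these mice, and whole counts of non-stranded reads cannot separate overlapping genes or close paralogs (Cyp, Ugt, Gst, Mup and immunoglobulin families).

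Gene classes, isozyme pairs, markers and tests were chosen with earlier results of these data known, so they are no independent support. Genes named were a fixed list, the up to 3 members per class and direction with the smallest p among those passing, and the 10 most extreme protein-coding genes each way. A few genes these rules name, and 4 of the 11 isozyme pairs tested, are not reported here. Spp1 was in the marker list, and Ankrd1 was chosen after its values were seen. Ccnd1, Mdm2 and Ccng1 are given outside these rules, to describe the rest of their class. Promoter matches were searched on both strands, each motif counted independently of any overlap with another.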

Additional observations from a re-analysis of the deposited data

Results flagged for a closer look

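Each value below lay far from the other libraries of its own group, by Dixon's ratio at its 95% critical value. Among 454 groups tested 30 stood out in this way, and chance flags about 1 in 20 groups. S100a11 was 32.9 CPM in HF_C replicate 1, against 46.8 to 52 CPM in the other HF_C livers. S100a6 was 4.79 CPM there, against 6.63 to 7.26 CPM in the other HF_C livers. Sema5b was 9.08 CPM there, against 6.45 to 7.19 CPM in the other HF_C livers. Sult1e1 was 3.52 CPM there, against 0.825 to 1.41 CPM in the other HF_C livers.

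Neutrophil markers summed to 41.9 CPM in HF_C replicate 2, against 15.6 to 22 CPM in the other HF_C livers. Egr2 was 5 CPM there, against 3.7 to 4.05 CPM in the other HF_C livers. Dll1 was 3.59 CPM there, against 4.41 to 4.58 CPM in the other HF_C livers. Mup16 was 1.37 CPM there, against 0.0635 to 0.36 CPM in the other HF_C livers.

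Skeletal muscle markers summed to 0.393 CPM in HF_C replicate 3, against 0 to 0.0688 CPM in the other HF_C livers. Wnt4 was 12.3 CPM there, against 7.23 to 8.57 CPM in the other HF_C livers. Slc1a5 was 12.4 CPM there, against 8.22 to 9.33 CPM in the other HF_C livers.

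Cd163 was 4.09 CPM in HF_C replicate 5, against 0.371 to 0.603 CPM in the other HF_C livers. Cxcl13 was 1.07 CPM there, against 0.135 to 0.295 CPM in the other HF_C livers.

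Axon guidance genes summed to 1901 CPM in LF_C replicate 1, against 1676 to 1705 CPM in the other LF_C livers. Krt18 was 162 CPM there, against 138 to 141 CPM in the other LF_C livers. Gaa was 125 CPM there, against 143 to 146 CPM in the other LF_C livers. Ighm was 25.6 CPM there, against 10 to 11.8 CPM in the other LF_C livers.

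Cyp2u1 was 13.4 CPM in LF_C replicate 2, against 16.1 to 16.4 CPM in the other LF_C livers.

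The score on the second principal component was 45.7 in LF_C replicate 4, against -22.9 to -16.7 in the other LF_C livers. Non-hepatic glycolytic isozymes and shared glycolytic enzymes summed to 4878 CPM there, against 4373 to 4455 CPM in the other LF_C livers. Wnt pathway genes summed to 602 CPM there, against 686 to 703 CPM in the other LF_C livers. Respiratory chain and ATP synthase subunits summed to 13591 CPM there, against 10333 to 10851 CPM in the other LF_C livers. Cytosolic ribosomal proteins summed to 14774 CPM there, against 11436 to 11667 CPM in the other LF_C livers. Amino acid catabolism and urea cycle genes summed to 37902 CPM there, against 24862 to 26747 CPM in the other LF_C livers. T and NK cell markers summed to 6.81 CPM there, against 4.35 to 4.7 CPM in the other LF_C livers. Pecr was 242 CPM there, against 170 to 182 CPM in the other LF_C livers. Pipox was 389 CPM there, against 256 to 267 CPM in the other LF_C livers. Hpd was 2938 CPM there, against 1352 to 1570 CPM in the other LF_C livers. Hmox1 was 15.5 CPM there, against 32.7 to 34.7 CPM in the other LF_C livers. Cyp2c69 was 12.8 CPM there, against 0.956 to 2.29 CPM in the other LF_C livers.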

How the results depend on the processing

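The counts of 3168 higher and 2835 lower genes kept within 1.5 times under DESeq2 (3458 and 2924), DESeq2's size factors in edgeR (3227 and 2672), a minimum of 2 CPM (2666 and 2465) and no filter (3292 and 2556). Library totals gave 5309 and 886, so that 85.7% of calls were higher instead of 52.8%; by construction they leave the composition difference in place. A log2 fold change of at least 1 left 1936 and 357. Leaving out 1 library gave 2769 to 3177 higher and 2246 to 2946 lower. The summed class count of 637 was 253 with the fold threshold and 550 to 651 with a library left out. Of the 11 isozyme ratios tested 9 passed, 9 also with deposited FPKM and 9 to 11 with a library left out.

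Replicate numbers did not pair the samples: same-numbered deviations correlated at -0.039, -0.154, -0.07 and 0.087. With the replicate block, 2591 genes were higher and 1895 lower, and the class count was 536; mitochondrial ribosomal proteins then had 18 lower members, retinoid genes 9 and proteasome subunits 2, and the calls of C9 (adjusted p = 0.0615), Gdf15 (0.0649), Cyp2e1 (0.0698), Rdx (0.0666), Efna2 (0.0732), Gjb1, Tpi1, Cyp1a2, Ltbr, Anxa11 and Dll1 (0.0805 to 0.125), Tubg1 (0.0917) and Ctsz (0.153) were lost, while Gstp1 (0.0424), Hamp (0.0348) and Ighm (0.0199) passed. Of the 168 genes named by the rules above and tested, 25 changed their call with library totals, 20 with some library left out and 19 under the other scaling, filters, DESeq2 or the block. Tpi1 and Ctsz changed sign with library totals, to 0.00 and 0.04. The fold threshold apart, 14 of 35 class counts moved by over 1.5 times with library totals and 5 with a library left out. Depth limited what could be tested: 14772 of 22464 genes, and 10 of 181 immunoglobulin genes, had enough reads.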

Other observations

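By gene biotype, protein-coding genes held most calls, with 22.5% of 13629 tested higher and 19.6% lower in HF_C livers. Among noncoding genes the balance differed: 10.1% of 366 lincRNA genes were higher and 16.4% lower, and 7.25% of 262 antisense genes were higher and 15.6% lower. The libraries were not stranded, so reads of an antisense gene and of its partner cannot be told apart. Pseudogenes had 8.11% of 259 higher and 11.2% lower, and processed transcripts 13.1% of 221 higher and 10.9% lower. These shares were not tested against those of protein-coding genes.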
